A study of Mus musculus with 16 samples.

Results

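The T cell receptor is the heterodimer with which a T cell recognizes antigen. Each of its chains is made from a variable (V) segment, chosen by somatic recombination during development in the thymus, and a constant (C) segment. In most CD8+ T cells the chains are alpha, from a Trav gene and Trac, and beta, from a Trbv gene and Trbc1 or Trbc2. A smaller lineage uses gamma and delta chains, from Trgv and Trdv genes with their own constant segments. The set of V segments carried by a population is a coarse readout of its repertoire, because T cells of 1 clone share their V genes.

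The receptor genes were taken by symbol (Trav, Trbv, Trgv, Trdv, Trac, Trbc, Trgc, and Trdc) from the 9 matrices of cells that the study annotated as CD8+ T cells. Of 174 such genes listed in any matrix, 83 were listed in all 9, among 16243 genes listed in all: 54 of 128 Trav genes, 20 of 35 Trbv genes, 4 of 6 Trdv genes, Trgv2, Trac, Trbc1, Trbc2, and Trdc. No symbol starting with Trgc was listed. The 91 genes not listed in every matrix held 451 of 737554 receptor unique molecular identifiers (UMIs), or 0.0611%, and 61 of them had 0 UMIs, so they were left out of the comparisons.

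Cells came from male mice and were sorted as viable CD45+ cells before droplet 3′ single-cell RNA-Seq. The accepted group was DBA/2J kidney transplanted into WT C57BL/6J (B6) recipients, with the graft and the recipient spleen taken at 1 week (3 libraries each), 3 weeks (5 each), and 24 weeks (3 each). The rejecting group was B6 kidney transplanted into DBA/2J recipients, taken at 1 week with 2 graft and 3 spleen libraries, and 5 naive spleens were added. No drug treatment was given in the labels, which state neither the age of the mice nor a different strain for the rejecting group. They give C57BL/6J and WT for every sample, and the donor and recipient strains above are from the text of the study. Recipient strain, rejection, and differences in how the matrices were prepared (those of the rejecting group listed more genes) cannot be told apart below. Matrices of accepted grafts and spleens differed too. The grafts listed 19497 genes and held no cell under 1000 UMIs. The spleens listed 17517 genes at 1 week, with 21 to 235 such cells per library, and 17730 genes at 3 weeks. The study's methods also digested kidneys with collagenase and ground the spleens. Organ and preparation cannot be told apart in those comparisons.

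The 32 libraries held 56 to 8407 cells and 153266 to 25960721 UMIs, and rejecting spleen replicate 2 was the smallest. The annotation was checked against Cd8a, Cd8b1, and Cd4. A CD8 UMI was found in 76.6% to 97.6% of the cells of the grafts of 1 week, 3 weeks, and rejection, of naive spleen, and of the libraries labelled 24-week spleen, and in all cells of the rejecting spleens, but in 41.9% to 51.8% of the cells of the accepted spleens of 1 and 3 weeks and of the libraries labelled 24-week graft, where a Cd4 UMI was found in up to 24.8%. Comparisons with the recipient spleens were therefore also run on cells with a CD8 and no Cd4 UMI, called CD8-only cells here. Kidney genes of the 24-week libraries did not follow the labels: summed kidney parenchyma genes reached 2.59 to 4.17 CPM (UMIs of a gene scaled to the total UMIs of the library, the usual depth unit) in the libraries labelled spleen and 0 to 0.361 CPM in those labelled graft. Summed genes of B cells, which either organ can hold, were at 13.9 to 43.1 CPM in the former and 78.7 to 211 CPM in the latter. No pair of libraries shared more than 21 cell barcodes, at most 1.79% of the smaller library.

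Receptor UMIs were rare in B cells and myeloid cells, and other cells that are not T cells, such as NK cells, were not measured. In the CD45+ matrix of naive spleen, 0.089% of 26959 B cells had a Trav UMI, 0.0742% a Trbv UMI, 0.586% a Trac UMI, and 1.42% a Trbc2 UMI. Among 638 myeloid cells, which had a median of 5838 UMIs against 2736 in B cells, the shares were 0.157%, 0%, 1.72%, and 3.92%. Among 5732 CD8+ cells of that matrix (median 4508 UMIs) the shares were 18.0%, 13.8%, 73.1%, and 95.9%. Most T cells thus had no V gene UMI in these 3′ libraries, and the shares of V genes below are taken among the cells in which a V gene of that chain was seen.

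The V gene result in accepted grafts turned on a group of near-identical Trav genes. Their second exons, which hold most of the V segment, are printed here from the GENCODE M21 annotation on GRCm38 (mm10), plus strand, to show how little separates them. Trav16 lies at chr14:53743406-53743705, Trav16n at chr14:53351322-53351621, and Trav16d-dv11 at chr14:53047522-53047821, in a cluster where blocks of Trav genes are present in several copies. Capitals mark the 6 of 300 positions at which the 3 genes differ.
Trav16: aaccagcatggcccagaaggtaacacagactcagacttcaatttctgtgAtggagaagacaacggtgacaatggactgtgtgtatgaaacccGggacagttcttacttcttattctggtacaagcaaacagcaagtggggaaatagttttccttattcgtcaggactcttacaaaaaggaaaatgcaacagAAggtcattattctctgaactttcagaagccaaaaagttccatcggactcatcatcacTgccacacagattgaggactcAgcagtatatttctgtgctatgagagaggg
Trav16n: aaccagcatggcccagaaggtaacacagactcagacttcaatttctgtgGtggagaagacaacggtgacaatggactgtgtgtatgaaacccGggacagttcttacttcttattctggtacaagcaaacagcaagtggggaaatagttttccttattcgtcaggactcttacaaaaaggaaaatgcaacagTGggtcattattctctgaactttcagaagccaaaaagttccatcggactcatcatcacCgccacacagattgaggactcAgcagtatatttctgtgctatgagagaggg
Trav16d-dv11: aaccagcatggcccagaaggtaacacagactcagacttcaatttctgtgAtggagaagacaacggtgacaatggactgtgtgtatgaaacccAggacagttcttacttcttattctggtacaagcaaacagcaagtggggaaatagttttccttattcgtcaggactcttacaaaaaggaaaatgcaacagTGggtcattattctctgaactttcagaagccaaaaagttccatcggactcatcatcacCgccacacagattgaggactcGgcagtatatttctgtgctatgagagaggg
Trav16 and Trav16n were 98.67% identical over these bases, Trav16 and Trav16d-dv11 98.33%, and Trav16n and Trav16d-dv11 99%. A read that covers none of the marked positions cannot be placed in 1 of them, so the split between the members is uncertain, and their sum, the Trav16 family, is given beside each gene.

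Trav16-family genes were carried by a larger share of alpha chains in accepted grafts than in recipient spleens. Trav16 made up 15.7%, 16.7%, and 14.5% of the cells with a Trav UMI in the 3 grafts of 1 week and 6.53%, 7.41%, and 8.35% in the spleens. At 3 weeks it made up 15.9%, 16.5%, 20.8%, 20.6%, and 15.9% in the 5 grafts and 10.1%, 12.3%, 8.98%, 9.80%, and 7.69% in the spleens. Every graft lay above every spleen at both times.

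Trav16n showed the wider gap. It accounted for 26.3%, 28.9%, and 26.7% of Trav cells in the grafts of 1 week against 10.2%, 9.09%, and 15.1% in the spleens. At 3 weeks its share was 25.6%, 26.3%, 20.1%, 28.4%, and 26.5% in the grafts against 11.9%, 7.02%, 7.19%, 5.88%, and 3.85% in the spleens. The third gene, Trav16d-dv11, stayed between 1.25% and 2.23% in the grafts. Because the V genes named include those with the largest changes in share, differences in share between graft and spleen are given as descriptions, with no p-value. Of 55 V genes with a mean share of at least 1% in either group at 3 weeks, 4 were higher in every graft than in every spleen and 5 were lower, and at 1 week 5 and 12 of 58. In CD8-only cells they were 3 and 1 of 57 at 3 weeks and 6 and 10 of 55 at 1 week.

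Summed over the family, the share was 43.7% ± 1.98 (SD, n = 3) in grafts of 1 week and 44.9% ± 3.62 (n = 5) in grafts of 3 weeks, against 20.6% ± 4.05 (n = 3) and 17.6% ± 3.35 (n = 5) in the spleens and 23.8% ± 4.56 (n = 5) in naive spleen. In CD8-only cells the spleens came closer, at 28.9% ± 6.85 and 27.7% ± 3.44, and the grafts were at 46.3% ± 2.08 and 45.4% ± 3.34. The lowest graft in that restriction, at 43.0%, was above the highest spleen, at 34.7%. The family was also read by lineage: in the CD45+ matrix of naive spleen, the family made up 22.6% ± 3.69 of Trav cells among CD8+ cells and 10.9% ± 3.09 among CD4+ cells (n = 5). For Trav16 alone the restricted shares overlapped at 3 weeks (means of 17.9% in grafts and 15.9% in spleens), whereas Trav16n stayed apart (25.8% and 10.8%).

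**Figure D1:**
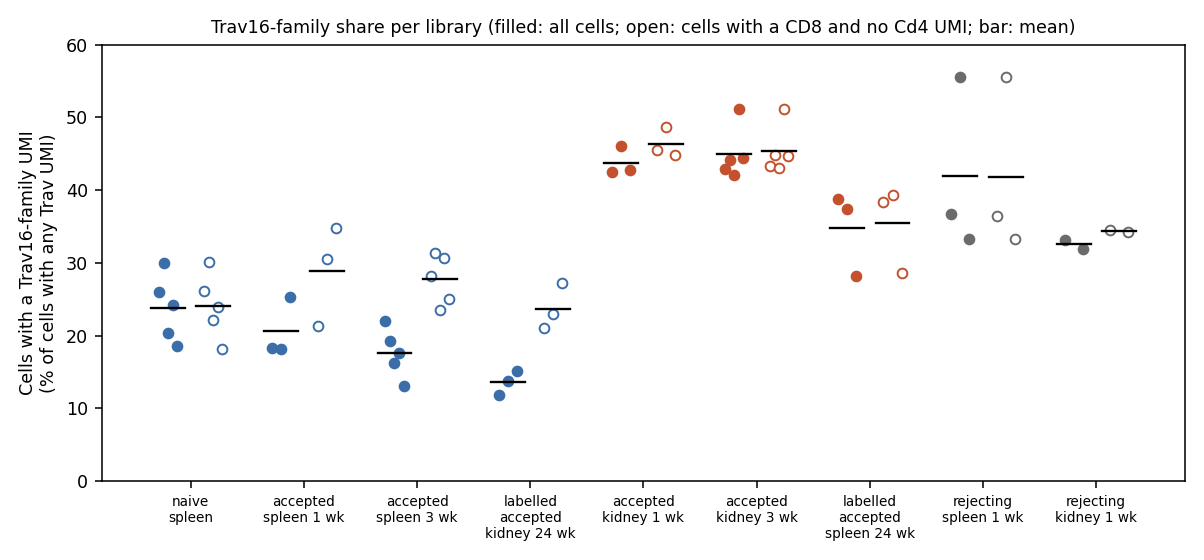
Share of cells with a Trav16-family UMI among cells with any Trav UMI (y axis, percent), by group (x axis); 1 point per library, filled for all cells and open for cells with a CD8 and no Cd4 UMI, and bars show the mean. The filled points of the grafts of 1 and 3 weeks sit between 42.0% and 51.2% and those of the spleens of the same weeks between 13.1% and 25.2%, and the open points sit between 43.0% and 51.2% in the grafts and between 21.3% and 34.7% in the spleens.

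Family transcripts were also higher per total UMI. Trav16 reached 9.49, 11.2, and 6.82 CPM in the grafts of 1 week and 2.44, 2.55, and 3.61 CPM in the spleens, without overlap, and its log2 fold change was 1.64 ± 0.24 (SE, adjusted P = 0.000225, edgeR quasi-likelihood test, adjusted by Benjamini-Hochberg across every gene that entered it). Trav16n was at 16.8, 21.5, and 12.7 CPM in the grafts and 4.27, 3.39, and 8.12 CPM in the spleens, also without overlap, with a log2 fold change of 1.65 ± 0.29 (adjusted P = 0.000715). At 3 weeks the log2 fold changes were 1.59 ± 0.18 for Trav16 (adjusted P = 2.62e-07) and 2.53 ± 0.19 for Trav16n (adjusted P = 7.85e-10). Both genes were called at both times in CD8-only cells too, with log2 fold changes of 1.35 and 0.98 for Trav16 and 1.43 and 2.08 for Trav16n. In sums over a library, fewer cells that carry a gene and less RNA per cell cannot be told apart.

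Alpha chain use was less even in the grafts than in the spleens. The effective number of Trav genes (the inverse of the chance that a pair of cells share a Trav gene, larger when use is even) was 10.5 ± 0.37 (n = 3) in grafts of 1 week and 10.2 ± 1.22 (n = 5) in grafts of 3 weeks. It was 27.5 ± 3.57 and 26.7 ± 3.55 in the spleens and 25.7 ± 4.13 in naive spleen, and 20.9 ± 7.37 and 21.1 ± 3.31 in CD8-only cells of the 2 spleen groups. The restricted values of the spleens ran from 15.1 to 29.2 at 1 week, the widest spread of these groups. With Trav genes summed by family number, the graft minus spleen difference shrank to -5.84 at 1 week and -5.54 at 3 weeks. The grafts did not lack other segments: 53 of the 54 Trav genes were seen on average in a graft of 1 week. Beta chains showed no such gap, with an effective number of Trbv genes of 13.7 and 13.4 in the grafts, 14.3 and 13.8 in the spleens, and 15.6 in naive spleen.

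**Figure D2:**
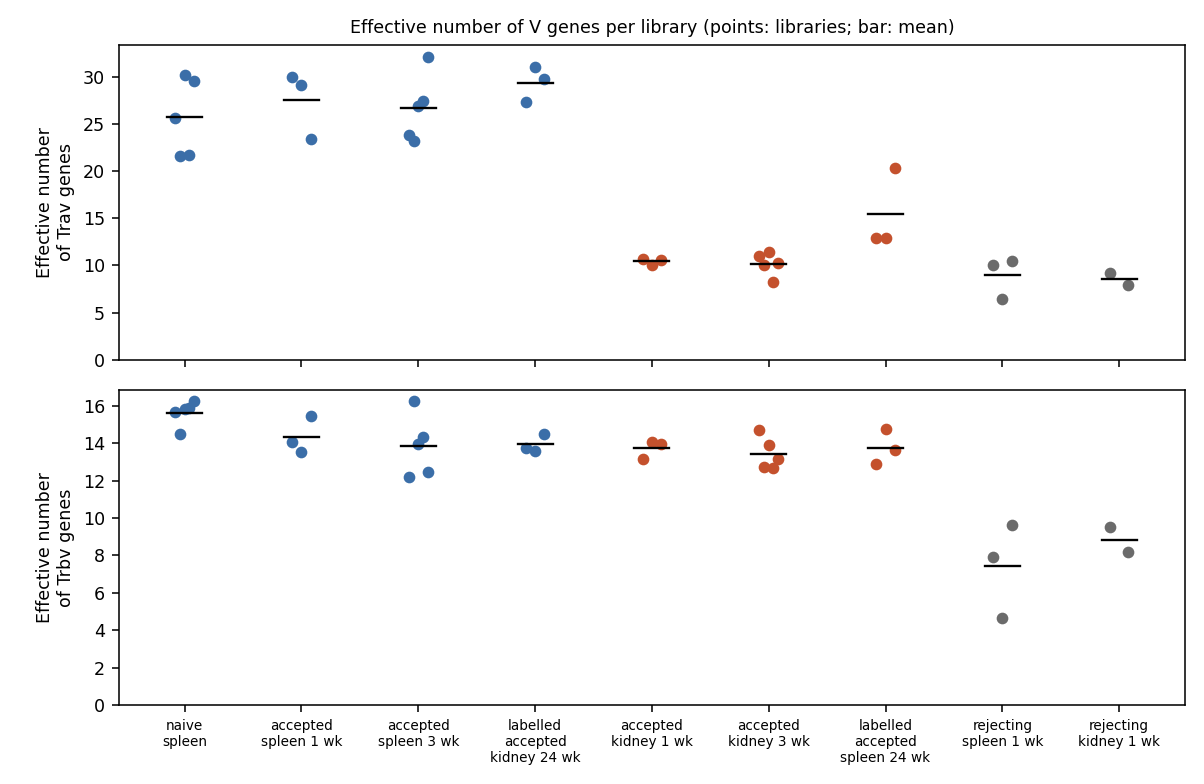
Effective number of V genes (y axis, number of genes) for Trav and Trbv in each library, by group (x axis), with bars at the mean. For Trav, accepted grafts of 1 and 3 weeks lie at 8.25 to 11.4 and rejecting libraries at 6.43 to 10.4, below the accepted spleens of those weeks and the naive spleens, whereas for Trbv the rejecting group stands below the others.

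Beta chain segments differed between graft and spleen by smaller amounts. Trbv29, a V beta gene, made up 6.83%, 9.60%, and 8.77% of Trbv cells in grafts of 1 week and 4.21%, 3.49%, and 5.61% in the spleens, with every graft higher. Its log2 fold change in CPM was 1.07 ± 0.28 (adjusted P = 0.00741) at 1 week and 0.97 ± 0.23 (adjusted P = 0.00104) at 3 weeks. In CD8-only cells it was 0.83 at 1 week and 0.58 at 3 weeks, and it was called at neither time. The difference in mean share at 3 weeks was 2.68 points in all cells and 0.224 points in CD8-only cells. Trbv13-1 made up 7.46%, 6.72%, and 7.42% in those grafts and 4.66%, 4.94%, and 4.45% in the spleens, again without overlap, and its log2 fold change was 0.80 ± 0.24 (adjusted P = 0.0163) at 1 week and 0.80 ± 0.21 (adjusted P = 0.00276) at 3 weeks. From 1 to 3 weeks the mean share of Trbv13-1 went from 7.20% to 9.98% in the grafts and from 4.68% to 6.97% in the spleens, and its graft over spleen change in CPM did not differ detectably between the times (difference of -0.0040 ± 0.25, adjusted P = 0.993).

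Other segments were lower in the grafts. Trav14d-3-dv8, a V segment annotated for use in alpha and delta chains, made up 2.43%, 1.16%, and 1.32% of Trav cells in grafts of 1 week and 4.96%, 3.37%, and 4.47% in the spleens. Its level fell by 1.16 ± 0.35 on the log2 scale (adjusted P = 0.0179), a call lost in CD8-only cells (-0.98) and without graft replicate 2 or 3 or spleen replicate 1 or 3 (-0.83 to -1.13). At 3 weeks its share was 1.19% ± 0.202 in grafts and 6.32% ± 2.07 in spleens (n = 5 each), but in CD8-only cells the grafts were at 0.874% to 1.47% and the spleens at 0% to 6.17%, which overlapped. Trbv1 made up 4.44%, 4.48%, and 3.71% of Trbv cells in grafts and 6.87%, 7.27%, and 8.70% in spleens of 1 week, and its level fell by 0.86 ± 0.29 on the log2 scale (adjusted P = 0.0262), a call that was lost in CD8-only cells, where it was -0.71, without dividing cells (-0.52), and without graft or spleen replicate 3 (-0.60 and -0.63). Trbv2 at 3 weeks was at 8.92% ± 1.60 in grafts and 15.5% ± 3.13 in spleens, but its log2 fold change of -0.45 ± 0.19 turned to 0.54 in CD8-only cells. In CD4+ cells of naive spleen Trbv2 had a share of 23.3%, against 11.4% in CD8+ cells.

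Constant genes carried most of the receptor UMIs. Trac (chr14:54220521-54224206) was at 561, 530, and 474 CPM in grafts of 1 week and 374, 350, and 325 CPM in the spleens, and at 741, 662, 687, 728, and 703 CPM against 418, 445, 383, 433, and 417 CPM at 3 weeks. No graft overlapped a spleen, with log2 fold changes of 0.58 ± 0.10 (adjusted P = 0.000694) and 0.75 ± 0.06 (adjusted P = 1.15e-09). Other cell genes moved with this difference: summed B cell genes were at 8.50 to 9.36 CPM in grafts and 464 to 929 CPM in spleens of 1 week and at 11.5 to 26.4 and 109 to 276 CPM at 3 weeks, and summed CD8 T cell genes had means of 3339 and 1872 CPM at 1 week and 5225 and 1902 CPM at 3 weeks. In CD8-only cells the change was called at both times, at 0.75 and 0.94. That restriction did not remove the other differences. B cell genes there had median log2 fold changes of -7.73 at 1 week and -3.28 at 3 weeks, and CD8 T cell genes 0.77 and 1.28. Trbc2 (chr6:41546730-41548352) was at 1898, 1913, and 1937 CPM in grafts and 1638, 1584, and 1571 CPM in spleens of 1 week, a log2 fold change of 0.26 ± 0.08 (adjusted P = 0.0212). The neighboring and near-identical Trbc1 rose by 0.24 ± 0.08 (adjusted P = 0.0346). Both calls at 1 week were lost with TMM scaling (0.23 for Trbc2 and 0.20 for Trbc1) and when any 1 of the spleens was left out (0.25 to 0.28 and 0.23 to 0.24). The Trbc1 call was also lost with DESeq2 (0.22), with 1 fit over all libraries and with the replicate block (both 0.24), and without graft replicate 1 or 2 (0.24 and 0.22). Trbc1 took a share of the Trbc UMIs that had a mean of 32.6% to 37.8% in each of the 9 groups. Because the sources used here do not say how reads shared by both Trbc genes were counted, that share is uncertain.

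Across all receptor genes, 11 of the 41 tested passed the test at 1 week, 8 higher and 3 lower in the graft, a share to be read against 51.4% of all 11697 genes (27.3% higher, 24.1% lower). At 3 weeks 15 of 26 passed, 12 higher and 3 lower, against 67.5% of all 10935 genes (47.3% higher, 20.3% lower), and the median log2 fold change of all genes was 0.22. In CD8-only cells 9 of 28 passed at 1 week, 8 higher and 1 lower, against 29.7% of all 11015 genes higher and 19.3% lower. At 3 weeks 10 of 24 passed in CD8-only cells, 9 higher and 1 lower, against 48.9% of all 10590 genes higher and 16.5% lower. With TMM scaling, which brought the median of all genes at 3 weeks to 0.01, 7 genes were higher and 5 lower at that time (32.2% and 30.5% of all genes), and Trbc2 was no longer called (log2 fold change 0.10).

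The gamma-delta genes moved in opposite directions. Trdc, the constant segment of the delta chain, was at 4.71, 2.55, and 4.51 CPM in grafts of 1 week and 28.7, 31.4, and 26.8 CPM in the spleens. At 3 weeks it was at 4.55, 7.48, 9.38, 7.62, and 6.98 CPM in the grafts and 48.4, 32.0, 47.1, 58.4, and 45.9 CPM in the spleens. It fell by 2.86 ± 0.19 and 2.68 ± 0.16 on the log2 scale (adjusted P = 9.12e-07 and 4.1e-11), and in CD8-only cells by 2.42 and 1.51. Of the 4 Trdv genes compared, Trdv1, at 0.149, 0.992, and 0.154 CPM in the grafts and 1.39, 0.849, and 0.677 CPM in the spleens of 1 week, was the one with enough counts to be tested, and it did not pass (log2 fold change -1.30 ± 0.64, adjusted P = 0.11).

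Trgv2, a V gamma segment that rearranges with the constant gene Tcrg-C2, rose instead. It was at 47.3, 40.1, and 26.3 CPM in grafts of 1 week and 9.59, 10.9, and 13.4 CPM in the spleens. At 3 weeks it was at 148, 219, 231, 201, and 194 CPM in the grafts and 11.0, 15.1, 22.7, 16.5, and 15.4 CPM in the spleens, and naive spleens held 0 to 1.44 CPM. The lowest graft of 3 weeks was above the highest of 1 week. The log2 fold changes over spleen were 1.73 ± 0.21 (adjusted P = 6.3e-05) and 3.63 ± 0.14 (adjusted P = 1.05e-13), and the difference between them, 1.90 ± 0.28, passed its own test (adjusted P = 1.69e-05, in a test that called 40.1% of 12306 genes). In CD8-only cells that difference was 2.08 (adjusted P = 0.000298).

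In the accepted grafts of 1 and 3 weeks, most cells with Trgv2 also had Trac and Trbc transcripts. As a background, Trgv2 was seen in 0.234% of 4707 myeloid cells (median 2585 UMIs) and 0.665% of 451 CD4+ cells (2679 UMIs) in the CD45+ matrix of rejecting grafts, against 26.5% of 2138 CD8+ cells (2485 UMIs). Trgv2 was seen in 7.89% ± 1.94 (n = 3) of the cells of a graft at 1 week and 27.8% ± 1.17 (n = 5) at 3 weeks, against 2.58% and 3.94% in the spleens, and in 2.98%, 15.4%, 1.18%, and 1.43% once each cell was thinned to 1000 UMIs. Of 6184 cells with Trgv2 in grafts of 3 weeks, 77.3% had a Trac UMI, 97.9% a Trbc UMI, 98.0% a CD8 UMI, and 1.12% a Trdc UMI. All cells of these grafts had Trac in 75.2%, Trbc in 97.6%, and Trdc in 0.743%. In the spleens of 3 weeks, 231 cells had Trgv2, of which 45.9% had Trac, 96.5% Trbc, 24.7% CD8, and 47.2% Trdc. Cells with Trdc had Trbc in 96.4% in grafts and 96.7% in spleens of 3 weeks, so Trbc did not separate these cells. Tcrg-C2, whose symbol is outside the receptor list, followed in the accepted group with a mean of 40.3 ± 4.95 CPM in grafts of 1 week, 132 ± 13.7 CPM in grafts of 3 weeks, and 11.0 and 11.3 CPM in the spleens. In the rejecting group both were seen in more cells of the grafts (Trgv2 22.6%, Tcrg-C2 6.12%) than of the spleens (1.29% and 0.200%). The grafts differed, at 30.25% and 8.35% in replicate 2 and 15.04% and 3.89% in replicate 3. Tcrg-C2 was thus seen in fewer cells than Trgv2 there, whereas accepted grafts of 1 week had Trgv2 in 7.89% and Tcrg-C2 in 8.31%. Trgv2 (chr13:19336573-19337167) and Tcrg-C2 (chr13:19304649-19307551) are neighbors on the minus strand.

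**Figure D3:**
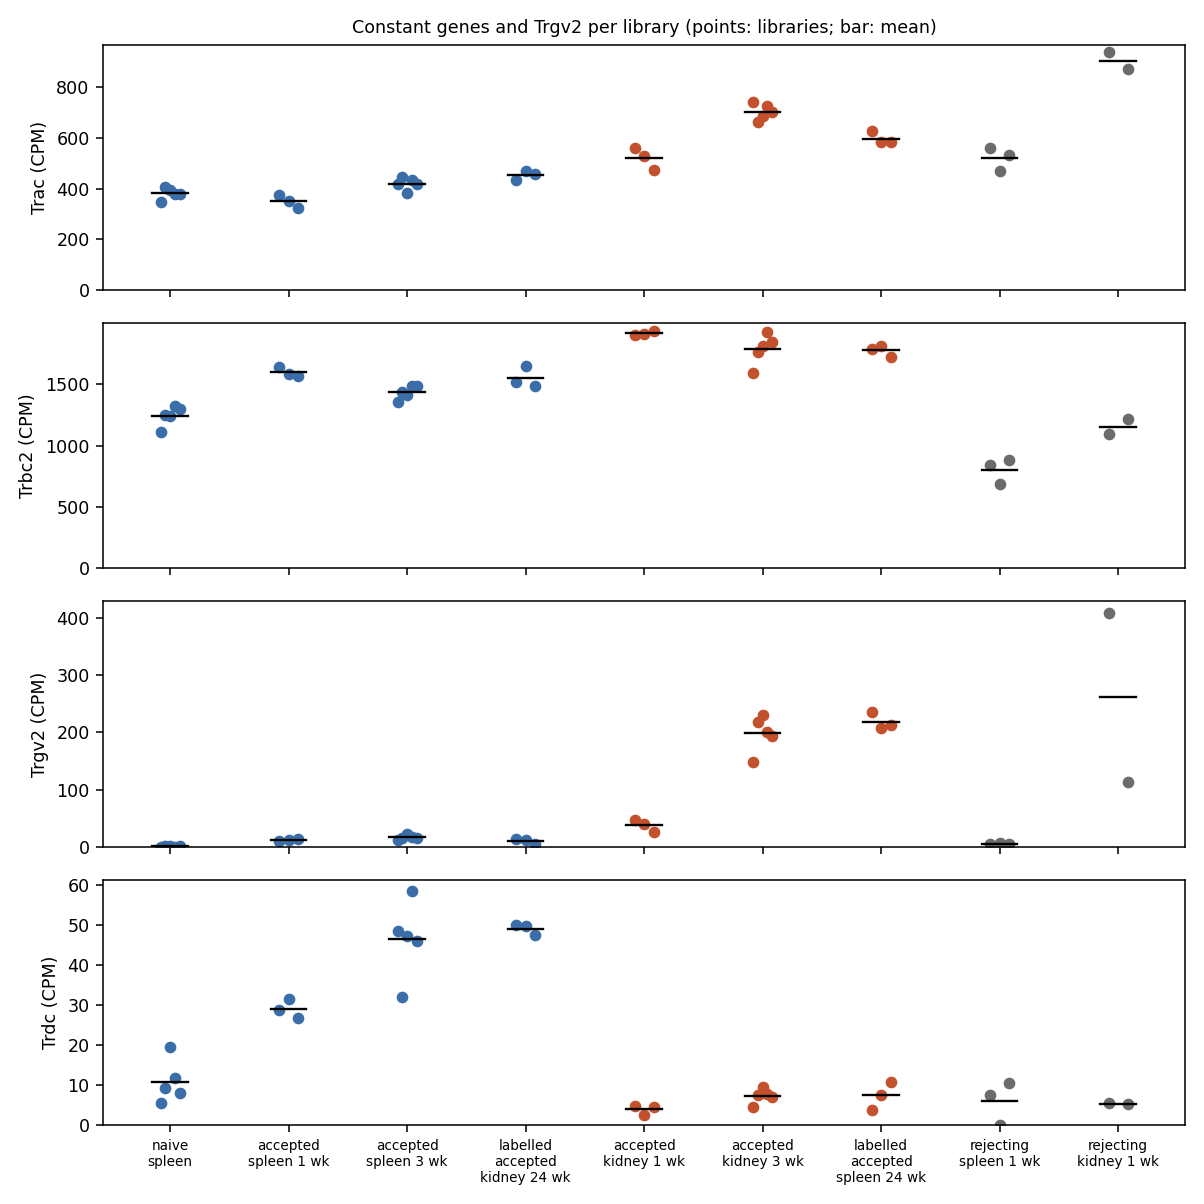
Level of Trac, Trbc2, Trgv2, and Trdc in CPM (y axes) in each library, by group (x axis), with bars at the mean. Trgv2 is at 148 to 231 CPM in grafts of 3 weeks and at 0 to 1.44 CPM in the CD8 matrix of naive spleen. Trdc is at 2.55 to 9.38 CPM in accepted grafts of 1 and 3 weeks and at 26.8 to 58.4 CPM in their spleens.

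Between grafts of 3 weeks and 1 week, 9 of 41 receptor genes passed, all higher at 3 weeks, against 75% of all 11644 genes (53.4% higher, 21.6% lower). The median of all genes was 0.41 there and 0.03 with TMM scaling, under which 1 gene was higher and 7 were lower (35.1% and 35.6% of all genes). Trgv2 kept its direction and its call with a log2 change of 2.40 ± 0.18 (adjusted P = 2.48e-08) and 2.03 with TMM, whereas Trac went from 0.43 ± 0.08 (adjusted P = 0.000155) to 0.05 and lost its call. Cells with a UMI of Mki67 or Top2a, which mark division, made up 29.7% to 48.3% of the grafts of 1 week and 10.7% to 15.7% of those of 3 weeks. Without those cells 10 of 37 receptor genes passed, 7 higher and 3 lower, against 55.6% of all 11258 genes higher and 17.5% lower. Trgv2 was then higher by 2.43 and Trac by 0.42, and Trbc2, which had not passed in all cells (-0.10), was lower at -0.19. In all cells with TMM scaling Trbc2 was at -0.48 and Trbc1 at -0.46 (-0.08 without it), and with DESeq2 at -0.49 and -0.47, all called.

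The libraries labelled 24 weeks were compared as labelled spleen over labelled graft, and 12 of 24 receptor genes passed, 10 higher and 2 lower, against 53% of all 10366 genes (36.6% higher, 16.5% lower). Of the genes named for the grafts of 1 and 3 weeks, Trgv2, Trac, Trbc2, Trav16, Trav16n, Trbv13-1, and Trbv29 were higher in the libraries labelled spleen, Trdc and Trav14d-3-dv8 were lower, and Trbc1 did not pass (log2 fold change -0.06 ± 0.08, adjusted P = 0.523). The Trbc2 change, 0.20 ± 0.07 (adjusted P = 0.0319), fell to 0.01 with TMM scaling and 0.02 with DESeq2 and lost its call, as it did with 1 fit over all libraries, with the replicate block (both 0.20), and without graft replicate 1 or 3 or spleen replicate 2 or 3 (0.17 to 0.22). Trbc1 was called lower with TMM (-0.25) and DESeq2 (-0.24), and the Trav14d-3-dv8 change of -1.24 ± 0.41 lost its call without graft replicate 1 (-0.99), spleen replicate 1 (-0.92), or spleen replicate 3 (-1.16). Trgv2 was at 236, 207, and 214 CPM in these and 13.4, 11.7, and 5.33 CPM in the libraries labelled graft (log2 fold change 4.48 ± 0.19, adjusted P = 1.91e-11). Trdc was at 3.78, 7.51, and 10.8 CPM and 50.0, 49.7, and 47.4 CPM, so neither gene overlapped. Trav16 had shares of 20.5%, 12.3%, and 10.3% in the libraries labelled spleen and 2.96%, 6.63%, and 2.79% in those labelled graft (log2 fold change in CPM 2.45 ± 0.35, adjusted P = 2.06e-05). The family made up 34.8% ± 5.74 and 13.6% ± 1.67 of Trav cells (n = 3 each), and 35.4% and 23.7% in CD8-only cells, in which 8 of 16 receptor genes passed, against 53.6% of all 9774 genes.

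In rejecting recipients few receptor genes had enough counts to be tested between graft and spleen. Of 9 receptor genes tested, Trac and Trgv2 passed, both higher in the graft, against 16.1% of all 8144 genes (10.8% higher, 5.32% lower). Trgv2 was at 409 and 113 CPM in the 2 grafts and 5.03, 6.52, and 4.54 CPM in the 3 spleens, with a log2 fold change of 5.68 ± 0.61 (adjusted P = 3.37e-05). Trac was at 938 and 872 CPM in the grafts and 559, 470, and 531 CPM in the spleens (log2 fold change 0.79 ± 0.23, adjusted P = 0.0312), a call lost with TMM scaling or DESeq2 (both 0.57), with the replicate block (0.85), which also leaves out spleen replicate 1 because no graft has that number, and without graft replicate 2 or any 1 of the spleens (0.73 to 0.85). The Trav16 family made up 31.9% and 33.2% of Trav cells in the grafts and 36.8%, 55.6%, and 33.3% in the spleens, which had 68, 9, and 48 cells with a Trav UMI. Every spleen was thus above both grafts, at the closest by 33.3% against 33.2%, the opposite order to the accepted group. In CD8-only cells the groups overlapped, with grafts at 34.4% and 34.2% and spleens at 36.4%, 55.6%, and 33.3%. By edgeR the graft over spleen change in CPM did not differ detectably between rejecting and accepted mice for Trav16 (difference -1.38 ± 0.62, adjusted P = 0.29) or Trav16n (-1.48 ± 0.52, adjusted P = 0.178). An exact test of 2 against 3 libraries cannot reach a P under 0.2.

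Rejecting grafts were then set against accepted grafts. Of 52 receptor genes tested at 1 week, 22 passed, 18 higher and 4 lower in rejecting grafts, against 59% of all 12352 genes (48.4% higher, 10.6% lower). The median of all genes was 0.68, and with TMM scaling, which brought it to 0.01, 13 were higher and 8 lower (27% and 25.8% of all genes). In CD8-only cells 18 of 46 passed, 13 higher and 5 lower, against 47.7% of all 11992 genes higher and 10.5% lower.

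Among alpha chains, Trav3-3 and Trav16n had the highest shares in rejecting grafts. Trav16n was at 24.4% and 23.5%, beside 26.3% to 28.9% in accepted grafts. Trav3-3 made up 24.4% and 28.3% of Trav cells in rejecting grafts and 17.6%, 22.2%, and 22.9% in rejecting spleens, against at least 2.92% and at most 8.50% in every accepted or naive library. Its level was 27.8 and 27.6 CPM against 3.29, 3.61, and 2.50 CPM in accepted grafts, with a log2 fold change of 3.16 ± 0.23 (adjusted P = 1.53e-05). The spleens of the rejecting and accepted groups differed likewise, by 2.89 ± 0.34 (adjusted P = 1.92e-05). Trav13n-4 had shares of 3.23% and 4.42% against 0.286% to 0.435% in accepted grafts (log2 fold change 4.49 ± 0.53, adjusted P = 0.00016). Trav16 was lower in share, at 6.91% and 8.41% against 14.5% to 16.7%, but Trav16d-dv11 was higher, at 4.06% ± 0.117 (n = 2) against 1.78% ± 0.432 (n = 3). The whole family was at 33.2% and 31.9% against 42.4% to 46.0%. The part of the uncertain split of reads in the shares of single members was not tested.

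Among beta chains, Trbv13-1 was the leading gene of rejecting grafts. Its share was 22.5% and 21.9% there, 18.5%, 37.5%, and 18.4% in rejecting spleens, and 6.72% to 7.46% in accepted grafts. Its level was 24.4 and 24.0 CPM against 3.96, 3.26, and 2.62 CPM in accepted grafts (log2 fold change 2.90 ± 0.24, adjusted P = 2.8e-05). A related gene, Trbv13-3, stood at 0.838% ± 0.651 against 6.42% ± 1.59. The second exons of the 3 Trbv13 genes are printed to show that, unlike the Trav16 genes, they differ at many positions. They lie on the plus strand of GRCm38 at chr6:41116178-41116468 (Trbv13-1), chr6:41121542-41121832 (Trbv13-2), and chr6:41130295-41130585 (Trbv13-3), and capitals mark the 49 of 291 positions that differ.
Trbv13-1: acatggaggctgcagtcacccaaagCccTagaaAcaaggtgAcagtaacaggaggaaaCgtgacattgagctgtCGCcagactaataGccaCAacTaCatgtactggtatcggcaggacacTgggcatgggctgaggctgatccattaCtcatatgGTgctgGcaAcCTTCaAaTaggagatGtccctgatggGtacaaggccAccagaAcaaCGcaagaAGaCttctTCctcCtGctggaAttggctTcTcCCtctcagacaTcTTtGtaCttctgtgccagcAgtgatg
Trbv13-2: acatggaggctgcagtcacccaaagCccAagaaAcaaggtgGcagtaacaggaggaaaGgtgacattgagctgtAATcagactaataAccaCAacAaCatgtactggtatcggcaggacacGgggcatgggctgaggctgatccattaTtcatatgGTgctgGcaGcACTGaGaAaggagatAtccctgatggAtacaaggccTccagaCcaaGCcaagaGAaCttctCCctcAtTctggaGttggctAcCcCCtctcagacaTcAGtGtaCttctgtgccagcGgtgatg
Trbv13-3: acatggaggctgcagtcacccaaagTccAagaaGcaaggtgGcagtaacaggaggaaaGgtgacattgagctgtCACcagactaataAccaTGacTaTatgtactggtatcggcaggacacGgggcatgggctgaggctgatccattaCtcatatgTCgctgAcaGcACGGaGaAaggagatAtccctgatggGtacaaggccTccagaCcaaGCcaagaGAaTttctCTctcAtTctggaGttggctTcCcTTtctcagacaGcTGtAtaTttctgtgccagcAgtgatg
Trbv13-1 shared 88.66% of these bases with Trbv13-2 and 85.91% with Trbv13-3. Reads were aligned to the B6 genome, and alleles of DBA/2J can differ from it, so counts of single V genes in the rejecting group carry that limit.

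Trbv4 had a share of 7.79% and 6.79% in rejecting grafts and 1.11% to 1.91% in accepted grafts (log2 fold change 3.51 ± 0.34, adjusted P = 6.02e-05). Trbv19 went the other way, at 1.73% and 0% against 7.20% to 10.6%, and its level fell by 2.41 ± 0.80 on the log2 scale (adjusted P = 0.0287), a call lost without rejecting graft replicate 3 (-1.23) without accepted graft replicate 1 or 2 (-2.37 and -2.21), and without dividing cells (-1.80). Trbv26 had no UMI in either rejecting graft, and against a floor of 3 UMIs over the group its mean level was at least 1.99-fold lower than the 1.09 CPM of accepted grafts. The call of Trbv26 was lost without rejecting graft replicate 3. Trbv12-2, the leading Trbv gene of accepted grafts, had a mean share of 17.8% against 13.5%, and it rose by 1.73 ± 0.24 (adjusted P = 0.000429).

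**Figure D4:**
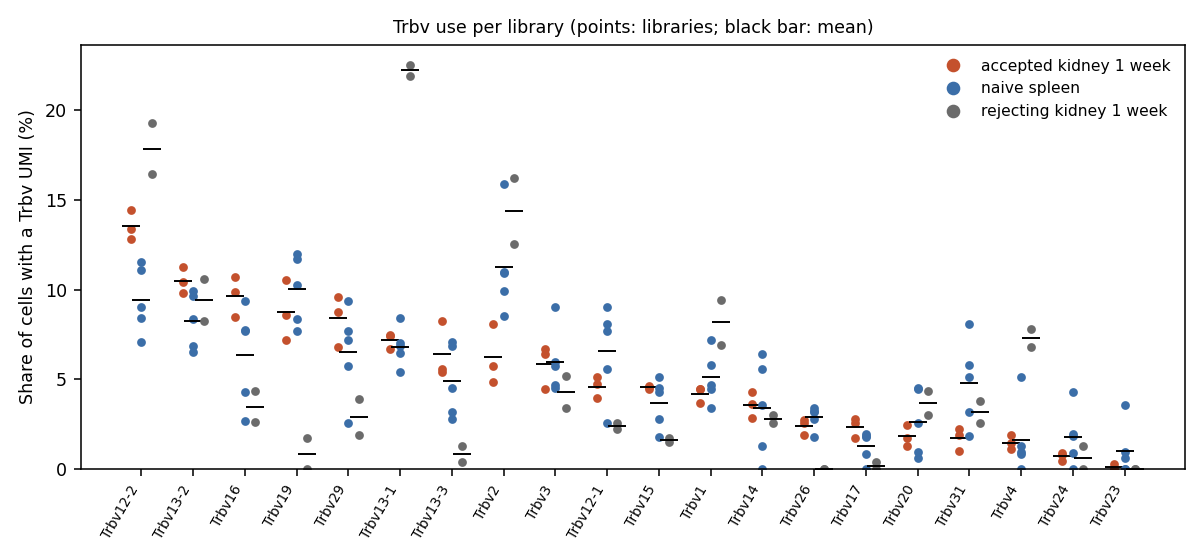
Share of each Trbv gene among cells with a Trbv UMI (percent) in accepted grafts of 1 week, naive spleens, and rejecting grafts of 1 week; 1 point per library. Trbv13-1 is at 21.9% and 22.5% in the rejecting grafts and at 6.72% to 7.46% in accepted grafts, and Trbv26 and Trbv19 lie near 0 in the rejecting grafts.

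A set of V beta genes is known for deletion in the thymus of strains that carry certain endogenous retroviral superantigens and the class II molecule I-E, and B6 and DBA/2J mice differ in both. The 9 such genes listed here (Trbv12-1, Trbv12-2, Trbv13-3, Trbv15, Trbv16, Trbv17, Trbv19, Trbv26, and Trbv29) together made up 30.2% ± 2.64 (n = 2) of Trbv cells in rejecting grafts and 60.8% ± 1.01 (n = 3) in accepted grafts, 57.1% ± 1.42 (n = 5) in grafts of 3 weeks, and 51.7% ± 4.39 (n = 5) in naive spleen. Rejecting spleens were at 12.5% to 42.6% (mean 28.6%), which overlapped accepted spleens of 3 weeks at 36.5% to 47.8% (mean 43.8%). Accepted spleens of 1 week had a mean of 53.9%. The libraries labelled 24-week graft and spleen had means of 46.0% and 53.2%. Of the 9, Trbv12-2 was higher and Trbv19 and Trbv26 were lower in the test of rejecting against accepted grafts, beside 48.4% of all genes higher and 10.6% lower, with a median log2 fold change of -0.44 against 0.68 for all genes. Trbv16 had a share of 3.49% against 9.67%, Trbv29 2.89% against 8.40%, and Trbv17 0.189% against 2.37%. Within the accepted group, 1 of 9 was higher in graft than spleen at 1 week and 5 of 7 at 3 weeks, beside 27.3% and 47.3% of all genes, with medians of 0.15 and 0.67 against 0.00 and 0.22 for all genes. In CD8-only cells 1 of 7 was higher at 3 weeks, beside 48.9% of all genes.

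Receptor constant genes also differed between rejecting and accepted grafts. Trbc1, at 520 and 601 CPM against 1014, 1051, and 1015 CPM, fell by 0.87 ± 0.16 on the log2 scale (adjusted P = 0.00159). Trbc2, at 1094 and 1216 CPM against 1898 to 1937 CPM, fell by 0.73 ± 0.15 (adjusted P = 0.00341). Trac was higher by 0.79 ± 0.16 (adjusted P = 0.00243), but with TMM scaling by 0.12 and not called. The ratio of Trac to summed Trbc UMIs does not depend on scaling: it was 0.531 ± 0.071 (n = 2) in rejecting grafts and 0.404 ± 0.032 (n = 3) in rejecting spleens, against 0.177 ± 0.016 (n = 3) in accepted grafts of 1 week, 0.257 ± 0.026 (n = 5) in grafts of 3 weeks, and 0.197 ± 0.013 (n = 5) in naive spleen. Every rejecting library had a higher ratio than every accepted or naive library, and whether this lies in the cells or in how their reads were counted was not tested.

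Between the spleens of the rejecting and accepted groups, 12 of 21 receptor genes passed, 8 higher and 4 lower, against 48.3% of all 10563 genes (36% higher, 12.3% lower), and 6 were higher and 7 lower with TMM scaling (24% and 23.3% of all genes). Beside Trav3-3, Trbv13-1 was higher by 3.16 ± 0.41 (adjusted P = 4.1e-05). Trdc and Trgv2 were lower, by fitted log2 changes of -1.84 ± 0.34 and -1.18 ± 0.43, and both calls were lost in CD8-only cells, where the changes were -0.54 and -0.13. Trbv1 was the other V gene, beside Trgv2, for which the graft over spleen change itself differed between rejecting and accepted mice (difference 4.69 ± 0.95, adjusted P = 0.0235; Trgv2 3.97 ± 0.83, adjusted P = 0.0278), in a test that called 1.44% of 13053 genes. Both rest on the shallow rejecting spleens, and in CD8-only cells neither passed (adjusted P = 0.106 and 0.197).

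The similarity of V gene use between libraries was described by the Morisita-Horn type index corrected for sample size, which is near 1 for samples of the same pool. In CD8-only cells, and leaving out rejecting spleen replicate 2, its median over pairs of libraries for Trav was 0.985 between grafts of 1 and 3 weeks, 0.918 between grafts and spleens of 1 week, and 0.812 between grafts of 1 week and naive spleens. It was 1.001 between spleens of 1 week and naive spleens, 0.793 between accepted and rejecting grafts, and 1.005 between rejecting grafts and spleens. For Trbv the median was 0.951 between grafts and spleens of 1 week and 0.759 between accepted and rejecting grafts. These libraries share the depth limit set by the number of cells with a V gene UMI in each.

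Other genes of the receptor complex and its signaling path, from a list of 26, were read beside the chains. In the grafts of 1 week 11 of 23 tested were higher than in spleen and 3 lower, beside 27.3% and 24.1% of all genes, with a median log2 fold change of 0.19 against 0.00 for all genes. At 3 weeks 17 were higher and 4 lower, beside 47.3% and 20.3% of all genes, with a median of 0.51 against 0.22. Cd3e and Cd3g, which encode signaling chains that assemble with the receptor, rose by 1.08 ± 0.12 (adjusted P = 3.79e-05) and 1.01 ± 0.13 (adjusted P = 0.000106) at 1 week. Cd247, which encodes the zeta chain of the same complex, fell by 0.31 ± 0.10 (adjusted P = 0.028). Nr4a1, an immediate early gene induced by receptor stimulation, rose by 2.68 ± 0.23 at 1 week and 1.08 ± 0.11 at 3 weeks (adjusted P = 5.26e-06 and 1.21e-07). Kidneys were digested with collagenase and spleens were ground, and the part of cell isolation in this rise was not tested. Nr4a1 was lower in rejecting than in accepted grafts, by a log2 fold change of -1.86 ± 0.20 (adjusted P = 0.000101). In CD8-only cells 13 of 22 genes of the list were higher and 2 lower at 1 week and 17 of 22 were higher and 2 lower at 3 weeks, beside 29.7% and 19.3% and 48.9% and 16.5% of all genes. Cd3e, Cd3g, and Nr4a1 were called higher there too at 1 week, by 1.17, 1.11, and 3.02, whereas Cd247 was not called (-0.24, adjusted P = 0.0802).

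Cells with Trav16-family transcripts were set against cells with other Trav transcripts of the same library, in CD8-only cells, a comparison added after the shares had been seen. In grafts of 1 week 839 and 1132 cells entered, with a median of 3317 and 3408 UMIs, and 46.5% and 47.9% held a UMI of a division gene. The test within libraries called 0.196% of all genes at 1 week and 0.222% at 3 weeks, and 5 and 10 of the called genes were outside the receptor. Gzmb, which encodes the cytotoxic protease granzyme B, was at 969, 1082, and 882 CPM in family cells and 727, 888, and 760 CPM in the other cells of the grafts of 1 week, higher in 3 of 3 (log2 fold change 0.30 ± 0.05, adjusted P = 2.38e-05). Ifitm1, which encodes an interferon-induced membrane protein, was at 138, 221, and 190 CPM in family cells and 83.4, 112, and 140 CPM in the others, also higher in 3 of 3 (0.71 ± 0.10, adjusted P = 2.76e-07). At 3 weeks Gzmb was at 733, 763, 1124, 1070, and 1092 CPM in family cells and 533, 864, 977, 728, and 865 CPM in the others, higher in 4 of 5 libraries (0.28 ± 0.05, adjusted P = 0.000257).

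Genes lower in family cells included Gzma at 1 week (log2 fold change -0.44 ± 0.09, adjusted P = 0.00307), which encodes granzyme A. At 3 weeks they included Eomes, a transcription factor of effector and memory T cells, with a log2 fold change of -1.34 ± 0.30 (adjusted P = 0.0108), and Gzmk, which encodes granzyme K, with -0.83 ± 0.19 (adjusted P = 0.0194). Eomes was at 13.1, 6.92, 1.73, 6.52, and 14.3 CPM in family cells and 44.3, 13.9, 13.9, 12.1, and 19.0 CPM in the others, lower in 5 of 5 libraries but at few counts. At 3 weeks Hspa1a, which encodes a heat shock protein, was lower (-0.34 ± 0.05, adjusted P = 7.37e-06), as were the chemokine gene Ccl5 (-0.12 ± 0.02, adjusted P = 0.000114) and the interferon-induced gene Ifi27l2a (-0.49 ± 0.08, adjusted P = 6.96e-05). These 3 were called at 3 weeks whichever library was left out, whereas Eomes and Gzmk were not called without graft replicate 1, 3, or 5 and Gzmb was not called without replicate 5. At 1 week none of the 5 genes was called without replicate 2, and Gzma was also not called without replicate 1. In naive spleens and rejecting grafts edgeR called 0 genes outside the receptor, and 0.0482% and 0.0203% of all genes when receptor genes are counted. They had 177 and 120 family cells, against 839 and 1204 in grafts of 1 and 3 weeks. Counts of calls thus cannot be compared directly. At an unadjusted P under 0.05, 165 of 4141 and 156 of 4918 passed, and 388 of 7640 and 416 of 6748 in those grafts (5.08% and 6.16%). Gzmb, Gzma, Gzmk, Hspa1a, and Ifitm1 were not tested in naive spleen. In the libraries labelled 24-week spleen, Fos and Ighm were called lower in family cells.

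**Figure D5:**
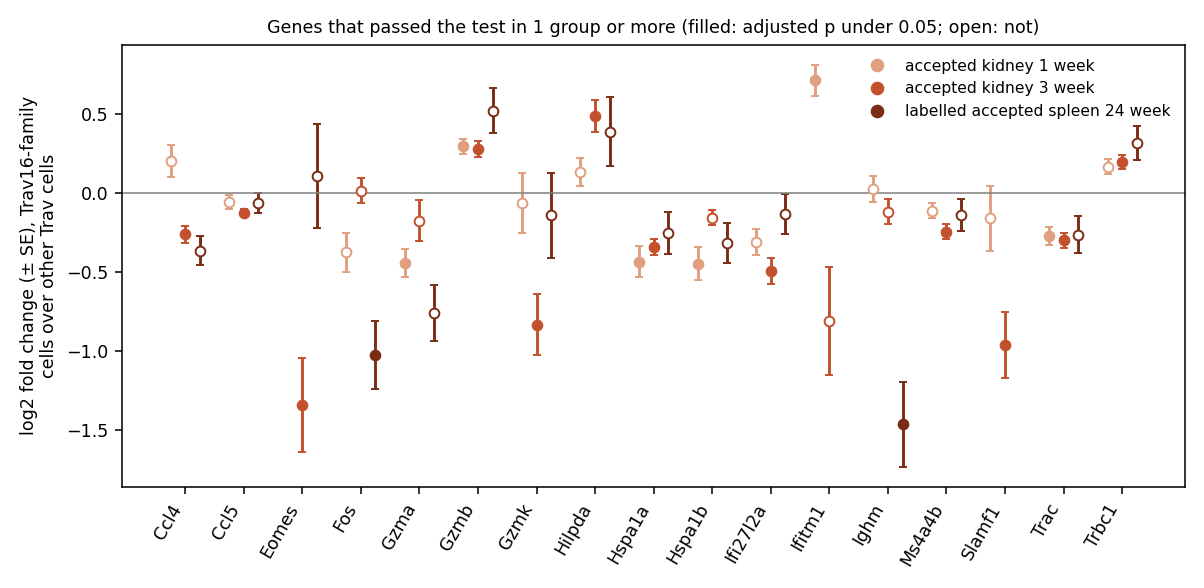
Log2 fold change ± SE (y axis) of genes (x axis) in cells with Trav16-family UMIs over cells with other Trav UMIs of the same libraries, in accepted grafts of 1 and 3 weeks and the libraries labelled 24-week spleen; filled points passed an adjusted P of 0.05. Gzmb is at 0.30 and 0.28 in the grafts of 1 and 3 weeks, and Eomes is at -1.34 at 3 weeks.

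Few cells had both a Trav16-family and a Trbv UMI, 137 in grafts of 1 week and 144 in grafts of 3 weeks. Trbv29 was seen in 19 of 137 (13.9%, exact 95% CI 8.56% to 20.8%) and 22 of 144 (15.3%, CI 9.83% to 22.2%), against 12 of 206 (5.83%, CI 3.05% to 9.95%) and 17 of 192 (8.85%, CI 5.24% to 13.8%) of the cells with other Trav genes. These intervals cover counting error only. The Trbv29 share was higher in family cells in each of these 8 graft libraries, by as little as 8.70% against 6.45%, or 2 cells against 2. Trbv29 was chosen from the 20 Trbv genes after their values had been seen. In the accepted spleens it was seen in 0 of 24 family cells and 2 of 56 other cells at 1 week and in 1 of 15 and 2 of 31 at 3 weeks. In the rejecting grafts it was seen in 0 of 25 family cells and 1 of 67 other cells. In the libraries labelled 24-week spleen it was seen in 10 of 39 and 9 of 74, higher in family cells in replicate 1 (37.5% against 12.5%) and lower in replicate 2 (12.5% against 13.3%) and replicate 3 (0% against 11.4%).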

How the data were processed

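The authors sorted viable CD45+ cells, made droplet 3′ libraries, mapped reads with Cell Ranger (version not given in the sources used here; build mm10), filtered and annotated the cells, and deposited raw UMI counts, which were used as deposited. The labels gave each matrix its condition, and tags in the cell barcodes gave the library, numbered as in the tag. The study's methods call each mouse a separate sample, but nothing read here ties a tag to a mouse, so p-values measure the spread between library tags. All 9 CD8 matrices (16243 genes in common) and 2 CD45+ matrices were read, and the other CD45+ matrices were not used here.

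UMIs were summed per library, scaled to CPM by plain totals, and tested with edgeR 4.0.16 (R 4.3.3): filterByExpr, glmQLFit and glmQLFTest, Benjamini-Hochberg adjustment over all genes tested, threshold 0.05, on the libraries of the 2 groups compared. There were 7 comparisons. V gene shares count cells with a UMI of that gene over cells with any V gene UMI of the chain, which can sum above the whole where a cell has several. No doublet caller was run here, the sources used here do not state that doublets were removed, and the part of doublets in cells with several V genes or with gamma and alpha-beta transcripts was not tested. V gene shares of graft and spleen at 3 weeks were compared by 2-sided exact permutation tests (Python 3.11.15). Their p-values are not printed because the genes named were chosen in part by these shares. Exact binomial intervals are at 95%. Alternatives were TMM, DESeq2 1.42.0, no filter, 1 fit over all libraries, CD8-only cells, cells without division genes, cells thinned to 1000 UMIs, leaving out each library, and a replicate block. On simulated data with 200 genes changed 2-fold and a dispersion of 0.02, edgeR recovered 84.6% at 1 week, 96.4% at 3 weeks, and 65.4% in rejection (graft against spleen), and 54.5% and 43.1% for rejecting against accepted grafts and spleens. Recovery was not read for receptor genes alone, so these rates do not give the power for V genes with few counts. Members and gene lists were chosen with earlier results of these data known. Named genes were all constant genes, the leading V genes per chain, those with the largest share changes, list members, and the called members with the smallest adjusted p. The 24-week comparison follows the labels. Same-numbered tags were checked for pairing, and no comparison had every pair's correlation above 0.1. In the accepted group most libraries still correlated best with their own number.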

Additional observations from a re-analysis of the deposited data

Results flagged for a closer look

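In 6 of 117 values tested over groups of 4 or 5 libraries, 1 library stood apart from the rest of its group, and chance sets apart about 1 group in 20. Graft replicate 1 of 3 weeks had a Trbv17 share of 9.18%, against 2.70% to 3.17% in the others, and a Trav3-1 share of 2.31%, against 0.514% to 0.940%. Graft replicate 3 of 3 weeks had a Trav8n-2 share of 7.21%, against 1.39% to 2.98%, and graft replicate 4 a Trav16-family share of 51.2%, against 42.0% to 44.3%. Spleen replicate 2 of 3 weeks had a Trav3-1 share of 0.585% where the others had 0, and naive spleen replicate 4 had a Trbv4 share of 5.13%, against 0% to 1.29%.

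The graft over spleen change differed between times or between outcomes for 4 entries, with 40.1% of 12306 and 1.44% of 13053 genes called. From 1 to 3 weeks it grew by 1.90 (log2, adjusted p = 1.69e-05) for Trgv2 and by 1.08 (adjusted p = 0.022) for Trbv16, whose difference in CD8-only cells was 0.93 (adjusted p = 0.0809), all by edgeR. Trbv17 passed in CD8-only cells (2.31, adjusted p = 0.0353) but not in all cells (1.66, adjusted p = 0.0755). Between rejecting and accepted mice the edgeR test gave a difference of 4.69 for Trbv1 (adjusted p = 0.0235) and 3.97 for Trgv2 (adjusted p = 0.0278). In CD8-only cells neither passed that test (adjusted p = 0.106 and 0.197). Trbv1 was seen in 0, 0, and 1 cells of the rejecting spleens.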

How the results depend on the processing

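Of 92 alternative counts of called receptor genes 82 stayed within 1.5 times the reported count, as did the direction and call of 672 of 773 alternative values of named genes (84 lost and 9 gained a call). Leaving out 1 library gave 7 to 14 called genes at 1 week (7 without spleen replicate 1 or 3) and 1 to 2 in rejection (1 without graft replicate 2 or spleen replicate 1). Without the filter on low counts 28 of 83 receptor genes were called at 3 weeks and 25 of 83 for the 24-week labels (8509 of 15882 and 6194 of 15425 genes in all), against 15 of 26 and 12 of 24. In rejection, TMM and DESeq2 each called 1 gene and 1 fit over all libraries 4. With the replicate block, the counts were 13, 16, 12, and 1 at 1, 3, and 24 weeks and in rejection, against 11, 15, 12, and 2 without it. In rejection the block also leaves out spleen replicate 1, and without that library alone 1 was called too. The sources used here do not state that the numbers pair the libraries, so the block was no main result. Same-number correlations were 0.186, 0.0996, and 0.284 at 1 week, where each graft correlated best with the spleen of its own number. At 3 weeks the same held for graft replicates 1 to 4 (0.380, 0.127, 0.0948, and 0.0797). Graft replicate 5 was at 0.0476 with its own number and at 0.0970 with spleen replicate 2. At 24 weeks every library correlated best with its own number.

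In CD8-only cells the graft minus spleen difference was 5.69 points for Trav16 and 17.5 for its family at 1 week, 2.06 and 17.7 at 3 weeks, and for the 24-week labels 4.68 for Trav16n and 11.7 for the family. These moves follow by construction from removing cells with a Cd4 UMI or without a CD8 UMI. In the accepted spleens a CD8 UMI was found in 44.2% of cells at 1 week and 46.8% at 3 weeks. A Cd4 UMI was found in 13.3% and 22.2%, so many of the cells removed had neither. The part of each kind of cell was not tested. Summed by family, the Trav16 differences were 23.2 points at 1 week, 21.2 for the 24-week labels, and -9.37 in rejection. Trav16 alone in rejection went from -0.292 points to 3.16 in cells with 1 V gene and 5.55 in thinned cells. For Trbv29 at 3 weeks, the difference in share was 0.224 points in CD8-only cells, 2.29 without dividing cells, 2.73 with thinned cells, and 2.29 to 3.09 when single libraries were left out, against 2.68. Differences in effective number for Trav were -11.5, -11.1, and -8.02 in CD8-only cells and -5.84, -5.54, and -3.72 by family at 1, 3, and 24 weeks, and -1.79 for Trbv in CD8-only cells at 24 weeks.

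The direction reversed for Trbc1 at 3 weeks (-0.0052 with TMM and -0.0099 with DESeq2), in rejection (-0.020 and -0.013), and for the 24-week labels in CD8-only cells (0.094), for Trbv2 at 3 weeks in CD8-only cells (0.54), and for Trdc between rejecting and accepted grafts (-0.24 and -0.23). The cause was not tested. Genes called outside the receptor in Trav16-family cells numbered 0 to 12 at 1 week and 4 to 14 at 3 weeks when 1 library was left out (0 without replicate 2, 12 without replicate 3, 4 without replicate 1 or 5). Depth limits V gene shares in rejecting spleens, with 9 to 68 cells each.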
